A study of Rattus norvegicus with 24 samples.

Results

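Genes that mark interneurons from the caudal ganglionic eminence (CGE) were examined in RNA sequencing of fetal rat hippocampus and neocortex. The list holds 8 gene symbols, and 7 of them had a row in the deposited table of 17420 genes, namely Nr2f1, Nr2f2, Prox1, Sp8, Htr3a, Gsx1 and Npas1. Npas3 was not analysed here. The genes were chosen by name for their lineage, with earlier results of these data known. All 7 were above the lowest listed value in all 24 pups and entered the fit.

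Cortical interneurons are not born in the cortex. They arise in the ganglionic eminences of the ventral forebrain and migrate into the neocortex and hippocampus before birth, and the CGE supplies the cells that later carry markers such as vasoactive intestinal peptide, reelin and the ionotropic serotonin receptor. Several of its marker genes have other sites of expression in the same region: Nr2f1 is graded across cortical progenitors, Prox1 is made in dentate granule cells and in the thalamus, and Sp8 and Gsx1 are made in progenitors of other eminences.

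The tissue came from pups on embryonic day 18 of Sprague-Dawley dams in 4 groups of 6 pups, with 3 pups from each of 2 litters per group. Dams of the Saline group received saline on gestational day 17, and those of the MAM and Poly I:C groups received 22 mg/kg methylazoxymethanol acetate, a DNA-methylating agent that blocks dividing neural progenitors, or 7.5 mg/kg polyinosine:cytosine, a double-stranded RNA mimic that provokes an antiviral response in the mother. Collection followed 18 h after injection. Low Protein dams ate food with 6.1% protein from gestational day 11 to 18, where control dams ate food with 20.3% protein at equal calories. The treatment was given to the dam, pups of a litter share that dam, and 8 litters in all stand behind the 24 pups, so p-values over pups measure the spread between pups. The sources do not state whether the Low Protein dams were injected. In a bulk sample of this kind, fewer cells of a type and less RNA per cell cannot be told apart.

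Windows for 4 of the 7 genes were found in the RefSeq table of promoters for GRCr8. Each holds 250 bases before and 50 after a listed start. The Npas1 window lay inside the gene as listed, at 86295509 to 86316018, and not upstream of its outer end. Only these 4 of the 7 genes had an entry, and all 4 windows are shown. In 1 saline pup described below, Sp8 and Gsx1 were at their highest and Nr2f1 and Npas1 at their lowest of all 24 pups. A link between the windows and that pup was not tested. Capitals mark matches on either strand to 6 short motifs. These were GGGCGG, the GC box read by Sp factors, the CCAAT box, the TATA box in the form TATAAA, the homeodomain core TAATTA, the E-box CAGCTG and the nuclear receptor core TGACCT.
Sp8, chr6:145958969-145959268, plus strand: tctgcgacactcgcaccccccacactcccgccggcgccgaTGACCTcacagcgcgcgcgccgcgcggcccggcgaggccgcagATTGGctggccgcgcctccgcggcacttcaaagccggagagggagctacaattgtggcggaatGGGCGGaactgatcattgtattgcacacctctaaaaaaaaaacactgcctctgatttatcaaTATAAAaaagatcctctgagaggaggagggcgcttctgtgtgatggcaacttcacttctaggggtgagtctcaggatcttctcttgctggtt
Gsx1, chr12:12996825-12997124, minus strand: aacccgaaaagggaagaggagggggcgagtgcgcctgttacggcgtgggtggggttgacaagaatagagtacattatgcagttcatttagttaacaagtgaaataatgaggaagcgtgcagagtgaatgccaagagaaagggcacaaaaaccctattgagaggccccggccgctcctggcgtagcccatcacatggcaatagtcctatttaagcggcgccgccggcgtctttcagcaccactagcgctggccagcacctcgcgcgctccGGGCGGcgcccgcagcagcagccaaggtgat
Nr2f1, chr2:9785875-9786174, minus strand: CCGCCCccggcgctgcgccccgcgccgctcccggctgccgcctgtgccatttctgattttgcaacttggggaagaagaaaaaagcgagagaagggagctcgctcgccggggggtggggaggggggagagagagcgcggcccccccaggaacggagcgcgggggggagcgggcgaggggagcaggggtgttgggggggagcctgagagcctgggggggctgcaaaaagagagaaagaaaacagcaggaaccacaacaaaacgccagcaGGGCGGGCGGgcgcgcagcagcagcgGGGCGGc
Npas1, chr1:86314844-86315143, minus strand: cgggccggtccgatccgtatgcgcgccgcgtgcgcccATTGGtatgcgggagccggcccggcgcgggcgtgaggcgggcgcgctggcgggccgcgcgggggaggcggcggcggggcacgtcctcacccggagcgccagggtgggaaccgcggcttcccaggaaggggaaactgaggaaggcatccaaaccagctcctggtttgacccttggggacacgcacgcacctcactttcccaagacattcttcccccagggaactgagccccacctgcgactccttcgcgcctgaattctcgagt
GGGCGG was found 4 times in the Nr2f1 window, with a pair of overlapping copies. It was found 1 time each in the Sp8 and Gsx1 windows, and not in the Npas1 window. The overlapping pair and the last copy of Nr2f1, and the copy of Gsx1, lay in the last 50 bases, after the start. Sp8 also held 1 CCAAT box, 1 TATA box and 1 nuclear receptor core, and Npas1 held 1 CCAAT box. The homeodomain core and the E-box were in none of the 4 windows. Over 33469 rat promoters of this length, 33.1% hold the GC box, 37.5% the CCAAT box, 14.2% the TATA box, 5.36% the homeodomain core, 15.1% the E-box and 16.2% the nuclear receptor core.

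The deposited values are of the TPM type, with a floor of 0.0001, and sum to the same total in every pup. Their low values behave as whole reads divided by genomic span, and on that scale the estimated depth per pup was 26.5 to 56.9 megareads for Saline, 24.3 to 60.8 for Low Protein, 34.2 to 63.2 for MAM and 28.2 to 40.5 for Poly I:C. The tissue label was checked against 6 markers of cortical excitatory neurons, which were above the floor in all 24 pups. Their summed value was 116 to 231 in Saline, 161 to 245 in Low Protein, 185 to 223 in MAM and 182 to 255 in Poly I:C.

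Pup 2.1 of the Saline group stood apart, and it was singled out after the values were seen. It had the highest value of 24 pups for 8 of 9 genes of a ganglionic eminence and GABAergic neuron list, among them Dlx2 at 25.5 against 9.65 to 16.4 in the other saline pups, and for 8 of 11 striatal genes. It had the lowest value of 24 for 4 of 6 excitatory neuron genes and for 5 of 6 cortical area patterning genes. The summed value of the 9 ganglionic genes was 122 in this pup, against at most 85.9 in any pup of the treated groups. Log2 fold changes of the 7 genes are therefore given below with and without saline pup 2.1. Low Protein pup 1.1 lay at the other end, with the lowest summed value of all pups for the ganglionic genes (51.6) and the striatal genes (7.18). That pup was kept in both sets of values. The composition of brain regions was not tested for either pup.

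**Figure D1:**
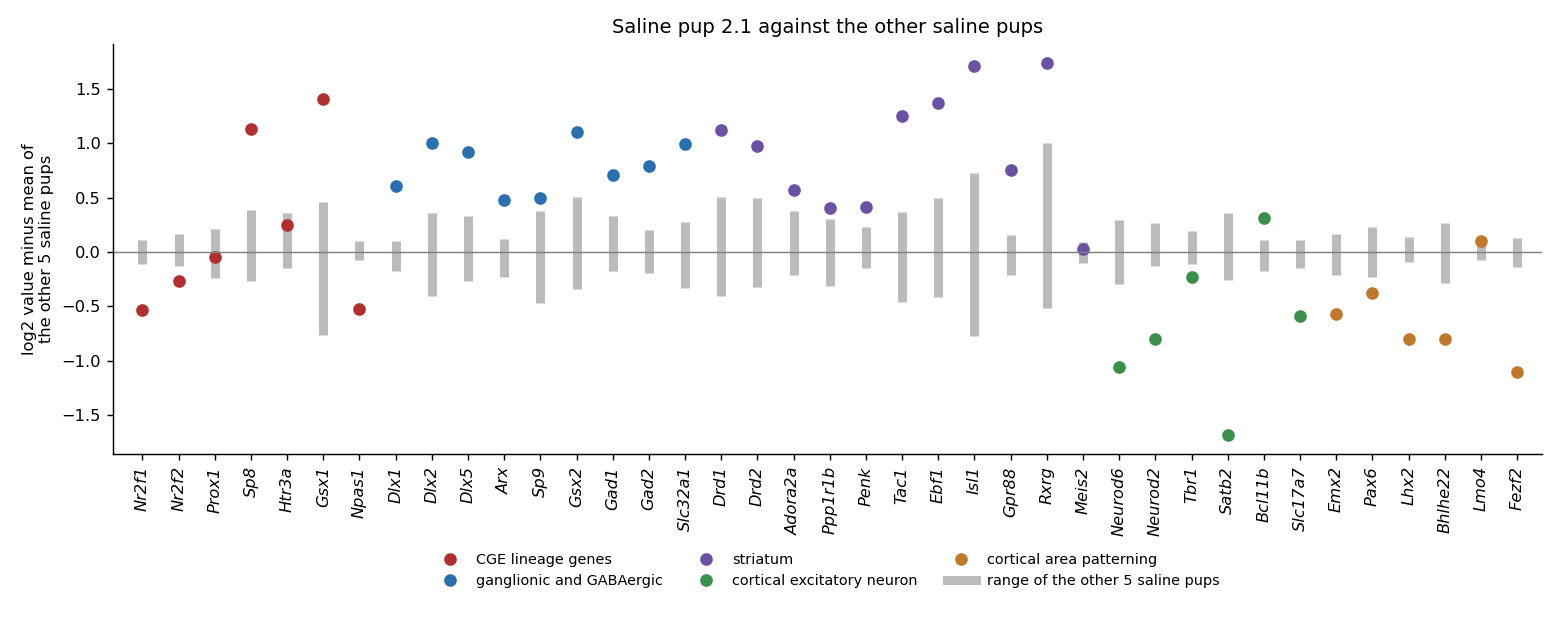
Log2 value of saline pup 2.1 minus the mean of the other 5 saline pups (y axis) for each gene (x axis), coloured by list, with grey bars for the range of the other 5 pups. Sp8 and Gsx1 lie 1.13 and 1.41 above the others together with the ganglionic and striatal genes, while Nr2f1 and Npas1 lie at -0.53 and -0.52 together with most excitatory neuron and area patterning genes.

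None of the 7 CGE lineage genes was called different from saline after adjustment in any of the 3 maternal treatments. Htr3a came nearest: its geometric mean was 0.801 times saline in Low Protein pups and 0.774 times saline in Poly I:C pups. This held at unadjusted p-values only, while MAM pups stayed near saline. Prox1 was lower in MAM than in Saline at unadjusted p-values when these 2 groups alone were compared, but not in the fit over all pups, and it followed thalamic genes from pup to pup. Nr2f1 and Nr2f2 varied together across pups. Gsx1 had the largest coefficient of variation of the 7 genes in each group, and much of the excess of Sp8 and Gsx1 in Saline lay in the pup described above.

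Over all 13785 genes in the fit, limma called 0% for Low Protein, 0.0145% for MAM and 0% for Poly I:C at an adjusted p under 0.05, and 0 of the 7 genes in each comparison. At an unadjusted p under 0.05, 1 of 7 passed for Low Protein, 0 for MAM and 1 for Poly I:C, against 7.09%, 9.46% and 9.08% of all genes. The gene that passed was Htr3a both times, and it was lower, a direction taken at that p by 4.38% of all genes for Low Protein, 7.31% for MAM and 5.25% for Poly I:C. A log2 fold change below 0 was found for 6 of 7 genes under Low Protein, 5 under MAM and 4 under Poly I:C, where the shares over all genes were 54.7%, 70.1% and 49.5%. The median log2 fold change of the 7 genes was -0.26, -0.05 and -0.09, beside -0.02, -0.07 and 0.00 over all genes. Without saline pup 2.1 these medians were -0.19, 0.00 and -0.04. Saline and treated pups overlapped for all 7 genes in every comparison, and only 0.689%, 0.856% and 0.421% of all genes did not overlap.

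**Figure D2:**
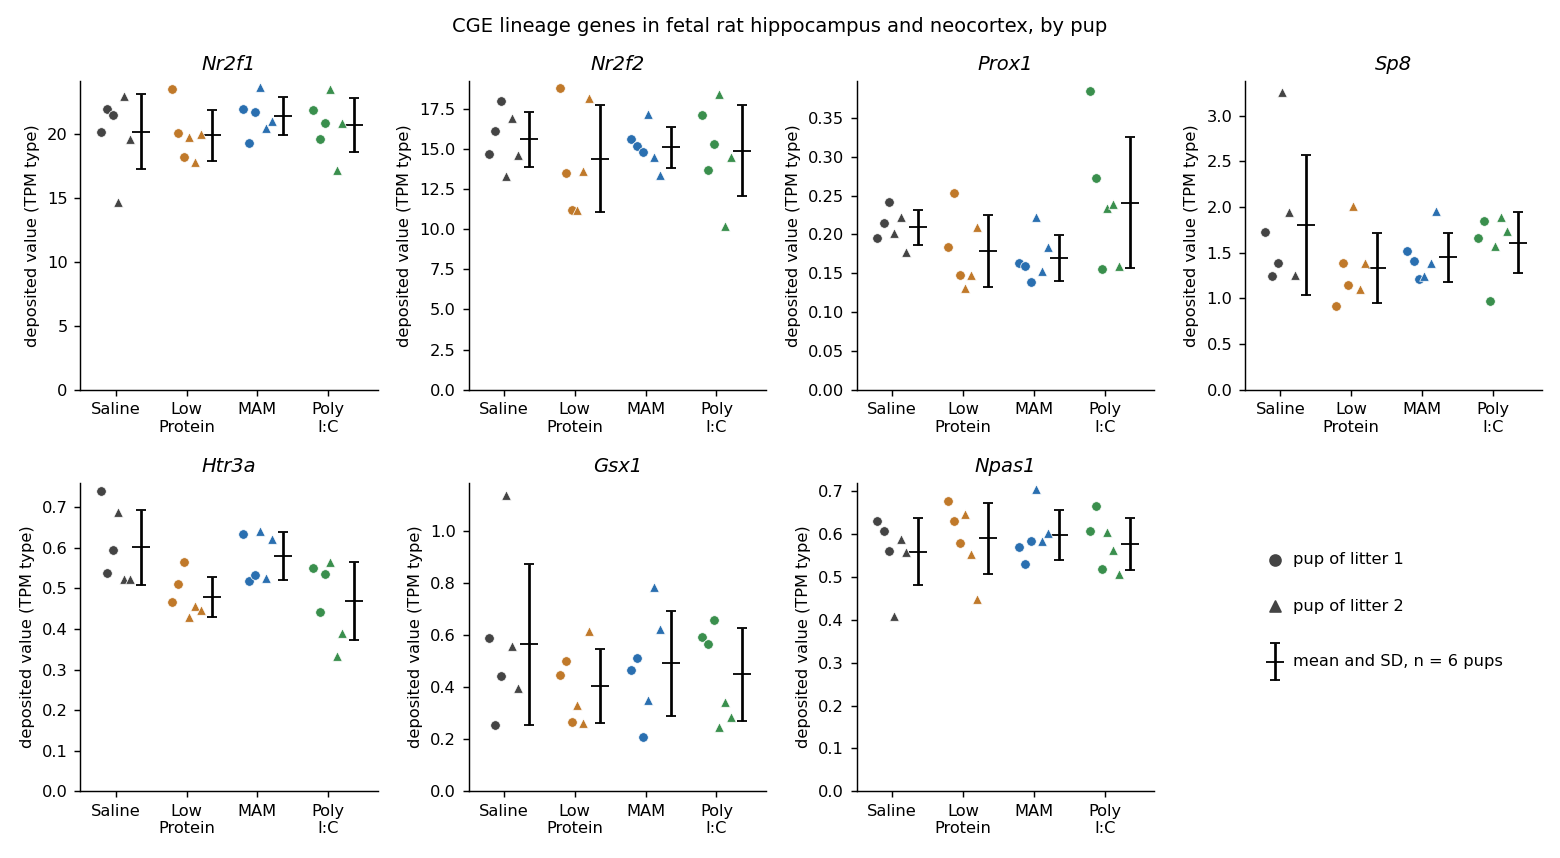
Deposited TPM-type value (y axis, from 0) of each CGE lineage gene in each pup, by maternal group (x axis), with circles and triangles for litters 1 and 2 and bars for the mean and SD of 6 pups. The groups overlap in every panel, and saline pup 2.1 is the high point for Sp8 (3.26) and Gsx1 (1.14) and the low point for Nr2f1 (14.7) and Npas1 (0.409).

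Gsx1 encodes a homeodomain factor of ganglionic eminence progenitors. Its values ran from 0.255 to 1.14 with a median of 0.502 in Saline, from 0.262 to 0.618 (median 0.390) in Low Protein, from 0.210 to 0.784 (median 0.490) in MAM and from 0.249 to 0.660 (median 0.454) in Poly I:C. All groups overlapped widely, and saline pup 2.1 was the single value above 1. The means were 0.565 ± 0.308, 0.405 ± 0.142, 0.492 ± 0.202 and 0.450 ± 0.178 (SD, n = 6 pups each). The log2 fold change from saline was -0.40 in Low Protein (95% interval -1.11 to 0.31), -0.16 in MAM (-0.87 to 0.55) and -0.27 in Poly I:C (-0.99 to 0.44). Without saline pup 2.1 it was -0.16, 0.07 and -0.04. Gsx1 was also the thinnest measurement of the set, at an estimated 19.3 to 98.2 reads per pup and a median counting error of 14.8%, while its coefficient of variation was 54.5% in Saline and 35.1% to 41.1% in the other groups. In Poly I:C the litters did not overlap, with 0.567 to 0.660 in litter 1 and 0.249 to 0.342 in litter 2. This split was singled out after the values were seen, and 18.0% of all genes in the fit were split by litter in that group.

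Sp8 encodes a zinc finger factor of the dorsal lateral and caudal eminences and of the interneurons they release. It ran from 1.24 to 3.26 with a median of 1.56 in Saline, from 0.916 to 2.01 (median 1.27) in Low Protein, from 1.21 to 1.95 (median 1.40) in MAM and from 0.975 to 1.89 (median 1.70) in Poly I:C. In Low Protein 3 of 6 pups lay under all saline pups, and otherwise the groups were mixed. Means were 1.80 ± 0.766, 1.33 ± 0.380, 1.45 ± 0.270 and 1.61 ± 0.334 in the same order (SD, n = 6 pups each). The log2 fold change was -0.40 in Low Protein (95% interval -0.84 to 0.05; exact permutation p = 0.18), -0.24 in MAM (-0.68 to 0.21) and -0.10 in Poly I:C (-0.55 to 0.34). Without saline pup 2.1 these values were -0.21, -0.05 and 0.09, and the sign in Poly I:C turned, as it also did without pup 1.3 of that group. Its paralog Sp9, which is made in the same progenitors, had a log2 fold change of -0.28 ± 0.219, -0.06 ± 0.219 and -0.06 ± 0.219 (SE) in the same order, and -0.20, 0.02 and 0.02 without saline pup 2.1.

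Nr2f1 encodes the nuclear receptor COUP-TFI, a factor of caudal cortical and eminence progenitors. It ran from 14.7 to 23.0 with a median of 20.8 in Saline, from 17.8 to 23.5 (median 19.9) in Low Protein, from 19.3 to 23.7 (median 21.3) in MAM and from 17.2 to 23.5 (median 20.9) in Poly I:C. The ranges overlapped. Apart from saline pup 2.1 at the bottom, saline pups ran from 19.6 to 23.0, while Low Protein and Poly I:C reached down to 17.8 and 17.2. Means were 20.2 ± 2.94, 19.9 ± 2.02, 21.4 ± 1.49 and 20.7 ± 2.11 (SD, n = 6 pups each). This was the tightest set of intervals in the list: the log2 fold change was -0.01 in Low Protein (95% interval -0.20 to 0.18), 0.10 in MAM (-0.09 to 0.28) and 0.05 in Poly I:C (-0.14 to 0.23). Without saline pup 2.1 the values were -0.10, 0.01 and -0.04.

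Nr2f2 encodes COUP-TFII, which steers interneurons along the caudal migratory stream. Its values ran from 13.3 to 18.0 (median 15.4) in Saline, from 11.2 to 18.8 (median 13.6) in Low Protein, from 13.4 to 17.2 (median 15.0) in MAM and from 10.2 to 18.4 (median 14.9) in Poly I:C. Low Protein and Poly I:C pups spread both above and below the saline range, while MAM pups stayed inside it. The lowest saline value was that of pup 2.1, and the other saline pups ran from 14.6 to 18.0. MAM pups 2.3 (13.4) and 2.2 (14.5) lay under these others. Means were 15.6 ± 1.73, 14.4 ± 3.35, 15.1 ± 1.29 and 14.9 ± 2.86 (SD, n = 6 pups each). The log2 fold change was -0.14 in Low Protein (95% interval -0.42 to 0.14), -0.05 in MAM (-0.32 to 0.23) and -0.09 in Poly I:C (-0.36 to 0.19), and the values without saline pup 2.1 were -0.19, -0.09 and -0.13. The related receptor Nr2f6 had log2 fold changes of -0.18, -0.14 and -0.16, each with an SE of 0.110 and none called by limma, and -0.09, -0.05 and -0.07 without that pup.

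Prox1 encodes a homeodomain factor that CGE-derived interneurons keep while they migrate and settle, and that dentate granule cells also need. It ran from 0.178 to 0.242 (median 0.209) in Saline, from 0.131 to 0.253 (median 0.166) in Low Protein, from 0.139 to 0.223 (median 0.162) in MAM and from 0.156 to 0.385 (median 0.236) in Poly I:C. In MAM 4 of 6 pups lay under all saline pups, and in Poly I:C 2 pups lay above and 2 below the saline range. Means were 0.209 ± 0.0226, 0.179 ± 0.0461, 0.170 ± 0.0295 and 0.241 ± 0.0848 (SD, n = 6 pups each). The difference between MAM and Saline was -0.31 on the log2 scale, with an exact permutation p of 0.0303, and limma over all pups gave a 95% interval of -0.70 to 0.08 and an adjusted p of 0.567. Fitted on these 2 groups alone, limma gave a p of 0.0196 and an adjusted p of 0.341. The MAM litters had means of 0.154 and 0.187, and without litter 1 of MAM the difference was -0.18. In Low Protein the log2 fold change was -0.26 (-0.65 to 0.13) and in Poly I:C 0.14 (-0.25 to 0.53). The changes in Low Protein, then MAM, then Poly I:C were -0.27, -0.31 and 0.13 without saline pup 2.1. Poly I:C exceeded MAM by 0.45 (exact permutation p = 0.0671). The Poly I:C value turned to -0.01 without pup 1.1 of that group, which held the highest Prox1 of all 24 pups at 0.385.

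Npas1 encodes a basic helix-loop-helix PAS factor that has been described as holding back interneuron production in the eminences. Values ran from 0.409 to 0.629 (median 0.573) in Saline, from 0.449 to 0.677 (median 0.604) in Low Protein, from 0.530 to 0.704 (median 0.584) in MAM and from 0.507 to 0.665 (median 0.583) in Poly I:C. The groups overlapped, with 3 of 6 Low Protein pups above all saline pups, and 1 pup each in MAM and Poly I:C. Means were 0.558 ± 0.0779, 0.589 ± 0.0826, 0.596 ± 0.0582 and 0.577 ± 0.0604 (SD, n = 6 pups each). The log2 fold change was 0.08 in Low Protein (95% interval -0.14 to 0.30), 0.10 in MAM (-0.12 to 0.32) and 0.06 in Poly I:C (-0.16 to 0.27), and these became -0.01, 0.02 and -0.03 without saline pup 2.1. The paralogs Npas2 and Npas4 had lower values per span than Npas1 in all groups, and Npas4, an activity-induced gene, had a log2 fold change of -0.89 ± 0.425 (SE) in Poly I:C with a limma p of 0.0469 and an adjusted p of 0.544. It was -0.88 with a limma p of 0.0675 when saline pup 2.1 was left out.

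Htr3a encodes the ionotropic serotonin receptor subunit that most CGE-derived neocortical interneurons carry. Values ran from 0.522 to 0.740 (median 0.566) in Saline, from 0.429 to 0.565 (median 0.461) in Low Protein, from 0.519 to 0.641 (median 0.577) in MAM and from 0.334 to 0.564 (median 0.489) in Poly I:C. In Low Protein 5 of 6 pups lay under all saline pups, in Poly I:C 3 of 6 did, and MAM pups lay within or just under the saline range. Means were 0.601 ± 0.0932 for Saline, 0.479 ± 0.0502 for Low Protein, 0.579 ± 0.0588 for MAM and 0.469 ± 0.0953 for Poly I:C (SD, n = 6 pups each). The log2 fold change was -0.32 ± 0.121 (SE) in Low Protein, or 0.801 times saline, with a limma p of 0.0149 and an adjusted p of 0.674. In Poly I:C it was -0.37 ± 0.121 (SE), or 0.774 times saline, with a limma p of 0.00566 and an adjusted p of 0.375. In MAM it was -0.05, with a 95% interval of -0.30 to 0.20.

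Exact two-sided permutation tests over pups for Htr3a gave p = 0.0152 for Low Protein and 0.0433 for Poly I:C against Saline. MAM exceeded Low Protein by 0.27 on the log2 scale (exact permutation p = 0.0152) and Poly I:C lay 0.32 under MAM (-0.32; exact permutation p = 0.0433). The difference between Saline and MAM lay within the spread (exact permutation p = 0.669), as did that between Low Protein and Poly I:C (0.723). Of 42 such tests, for 7 genes and 6 pairs of groups, 5 gave a p under 0.05, and 4 of the 5 were for Htr3a. These p-values are unadjusted, the 4 tests share groups, and the smallest p that such a test allows is 0.00216. A limma F-test for Htr3a over the groups together gave an adjusted p of 0.273.

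The litters bore on the Htr3a values. Litter means were 0.624 and 0.578 in Saline, 0.562 and 0.596 in MAM, 0.514 and 0.444 in Low Protein and 0.509 and 0.429 in Poly I:C. Each litter mean of Low Protein and Poly I:C lay under each of Saline and MAM. These groups were set apart by the same values, so the order describes them and is not a separate result. The share of all genes with such an order was not computed. In Low Protein the litters themselves did not overlap, as was the case for 16.7% of all genes in that group. With litters as the unit, limma gave p-values of 0.0337 for Low Protein and 0.0187 for Poly I:C, with adjusted p-values of 0.907 and 0.789. Without litter 2 of Low Protein the log2 fold change was -0.22, with an adjusted limma p of 0.778, and without litter 2 of Poly I:C it was -0.23, with an adjusted limma p of 0.928, and neither then passed an unadjusted p of 0.05. Low Protein did not pass it without litter 1 of Saline either, at -0.26. Without saline pup 2.1 the changes were -0.28 and -0.33, with adjusted limma p-values of 0.891 and 0.64. The other subunit gene, Htr3b, was listed at the floor in all MAM and Poly I:C pups and at 0.00103 or less elsewhere.

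**Figure D3:**
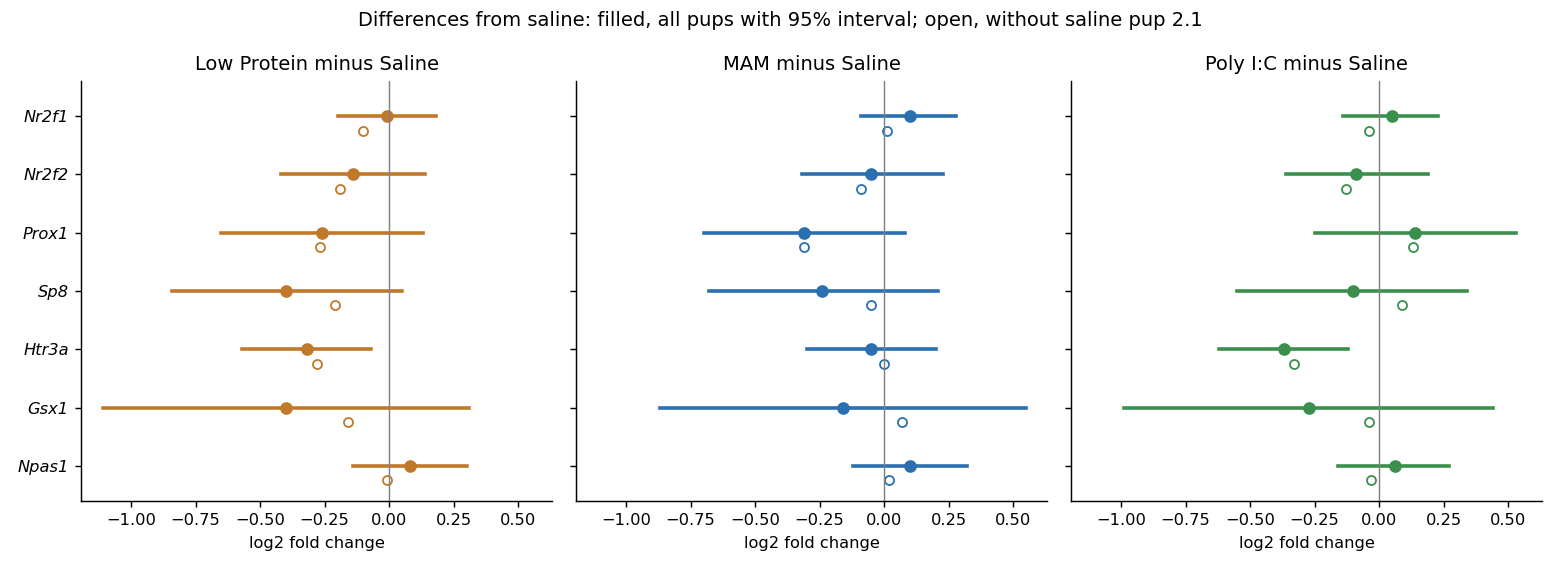
Log2 fold change from saline (x axis) of each CGE lineage gene (y axis), with a panel per treatment, as filled points with 95% intervals over all pups and open points without saline pup 2.1. The interval leaves out 0 only for Htr3a in Low Protein (-0.57 to -0.07) and Poly I:C (-0.62 to -0.12), and the open points of Sp8 and Gsx1 lie nearer to 0 than the filled ones in Low Protein and MAM.

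Other genes of CGE-derived interneurons were set beside the 7, and 7 of the 8 on that list had a row (Adarb2, Calb2, Vip, Cck, Reln, Lamp5 and Cnr1). None was called by limma at an adjusted p under 0.05. In Low Protein 7 of 7 had a log2 fold change below 0 and 0 had an unadjusted p under 0.05, with a median of -0.27, where 54.7% of all genes lay below 0 and 7.09% had such a p. In MAM 6 of 7 lay below 0 with a median of -0.24, and the exception, the neuropeptide gene Cck, was 0.21 ± 0.0948 (SE) higher with a limma p of 0.0396 and an adjusted p of 0.523, beside 70.1% and 9.46% of all genes. Cck was 0.16 higher, with a limma p of 0.104, when saline pup 2.1 was left out. In Poly I:C 6 of 7 lay below 0 with a median of -0.24, and 2 had an unadjusted p under 0.05, beside 49.5% and 9.08% of all genes. Lamp5, a membrane protein gene of neurogliaform cells, was 0.0107 to 0.0371 in Poly I:C and 0.0261 to 0.0708 in Saline, a log2 fold change of -1.18 ± 0.386 (SE) with an adjusted p of 0.375. Cck was 2.76 to 4.17 in Poly I:C and 3.54 to 4.72 in Saline, a log2 fold change of -0.27 ± 0.0948 (SE) with an adjusted p of 0.389. With saline pup 2.1 left out, the medians of the list were -0.25, -0.22 and -0.24, and Lamp5 and Cck in Poly I:C were -1.08 and -0.32. Vip, which is switched on mostly after birth, was at the floor in 5 of 24 pups and reached 0.0128 at most.

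Markers of GABAergic neurons in general lay on the same side of saline as Htr3a. All 9 genes of the ganglionic and GABAergic list had a log2 fold change below 0 in each treatment, with medians of -0.38 for Low Protein, -0.24 for MAM and -0.16 for Poly I:C, and 6, 2 and 0 of them were lower at an unadjusted p under 0.05. Over all genes 54.7%, 70.1% and 49.5% lay below 0, and 4.38%, 7.31% and 5.25% were lower at that p. Without saline pup 2.1 the medians of the list were -0.25, -0.09 and -0.03, the counts lower at that p were 1, 0 and 0, and 9, 8 and 6 of the 9 genes lay below 0, beside 60.3%, 71.4% and 54.2% of all genes. Their summed value was 60.4 to 122 in Saline, 51.6 to 74.5 in Low Protein, 57.4 to 78.3 in MAM and 60.4 to 85.9 in Poly I:C, and none was at the floor. The part that these cells have in the Htr3a values was not tested.

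Relations from pup to pup were then computed after the mean of each group was subtracted, over 21 pairs of the 7 genes and 84 pairs of a gene with the score of a marker list. A score is the mean log2 value of a list's genes relative to saline. The p-values come from 100000 permutations of pups within groups and were adjusted over the 105 relations, of which 6 had an adjusted p under 0.05 for Pearson's r. Pups of a litter are not independent, so r within litters is given as well.

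The nuclear receptors moved together: Nr2f1 and Nr2f2 had r = 0.72 over 24 pups (permutation p = 5e-05, adjusted 0.00525) and a Spearman rho of 0.76 (permutation p = 0.00012, adjusted 0.0126). The value was 0.73 within litters, 0.70 without the 2 pups farthest from the median and 0.78 without saline pup 2.1. No other pair of the 7 genes had an adjusted p under 0.05. With the score of the other CGE interneuron genes, none of the 7 had an adjusted permutation p under 0.05 either. There r ran from -0.16 for Nr2f1 (adjusted permutation p = 0.684) to 0.35 for Htr3a (0.458). That score includes Vip, which was at the floor in 5 of 24 pups. Sp8 and Gsx1, both highest in saline pup 2.1, had r = 0.39 with it and 0.17 without it. Nr2f1 and Sp8 ran against each other with r = -0.51 (adjusted permutation p = 0.227), and this became -0.19 without that pup. For Nr2f2 and Sp8, r was -0.45 (adjusted permutation p = 0.18), and -0.40 without that pup.

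Prox1 followed the thalamus score (Gbx2, Tcf7l2, Lhx9, Slc17a6 and Ntng1) with r = 0.74 (permutation p = 0.00082, adjusted 0.0287) and rho = 0.67 (permutation p = 0.00226, adjusted 0.0475). It was 0.75 within litters and 0.69 without the 2 farthest pups. The summed value of the 5 thalamic genes was 1.80 to 4.41 in Saline, 1.44 to 4.73 in Low Protein, 1.53 to 2.16 in MAM and 1.45 to 5.60 in Poly I:C, and no gene of the list was at the floor. All 5 had a log2 fold change above 0 in Poly I:C and below 0 in MAM, as Prox1 itself did, beside 49.5% and 70.1% of all genes below 0. This held without saline pup 2.1 for 4 of 5 in Poly I:C, with Slc17a6 at -0.01, and for 5 of 5 in MAM. Pup 1.1 of Poly I:C had both the highest score, 1.14, and the highest Prox1. Gsx1 had r = 0.54 with the thalamus score (adjusted permutation p = 0.0741). For Prox1, r was 0.52 with a score of Cajal-Retzius cell genes (adjusted permutation p = 0.162). It was 0.44 with the dentate and hippocampal field score (adjusted permutation p = 0.327). With the ganglionic and GABAergic score it was 0.41 (adjusted permutation p = 0.18), but 0.56 without saline pup 2.1 and 0.67 without the 2 farthest pups. With the medial ganglionic eminence score it was 0.38 (adjusted permutation p = 0.458), and 0.62 without the 2 farthest pups. The part of thalamic tissue in the Prox1 values was not tested.

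Npas1 followed the cortical excitatory neuron score with r = 0.85 (permutation p = 0.00017, adjusted 0.00892) and rho = 0.71 (permutation p = 0.00047, adjusted 0.0247). This was 0.86 within litters, 0.77 without saline pup 2.1 and 0.60 without the 2 farthest pups. Its r was 0.75 with the area patterning score (adjusted permutation p = 0.0403; 0.36 without the 2 farthest pups, on which it rests) and 0.61 with the dentate and hippocampal field score (adjusted permutation p = 0.0432). With the ganglionic and GABAergic score it was -0.19 (adjusted permutation p = 0.684), and the sign turned to 0.28 without saline pup 2.1 and to 0.54 without the 2 farthest pups. The difference between these correlations was not tested.

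For Sp8 the relation with the ganglionic and GABAergic score had r = 0.71 (permutation p = 0.00132, adjusted 0.0346) and rho = 0.58 (permutation p = 0.0055, adjusted 0.0706). The value was 0.82 within litters, 0.53 without saline pup 2.1 and 0.43 without the 2 farthest pups. Without the 2 farthest pups the r of Prox1 (0.67), Htr3a (0.55), Npas1 (0.54) and Gsx1 (0.46) with this score was above that of Sp8. Htr3a had r = 0.52 with the same score (adjusted permutation p = 0.117; rho = 0.60), 0.61 with the medial ganglionic eminence score (0.0754) and 0.50 with the striatum score (0.0672).

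**Figure D4:**
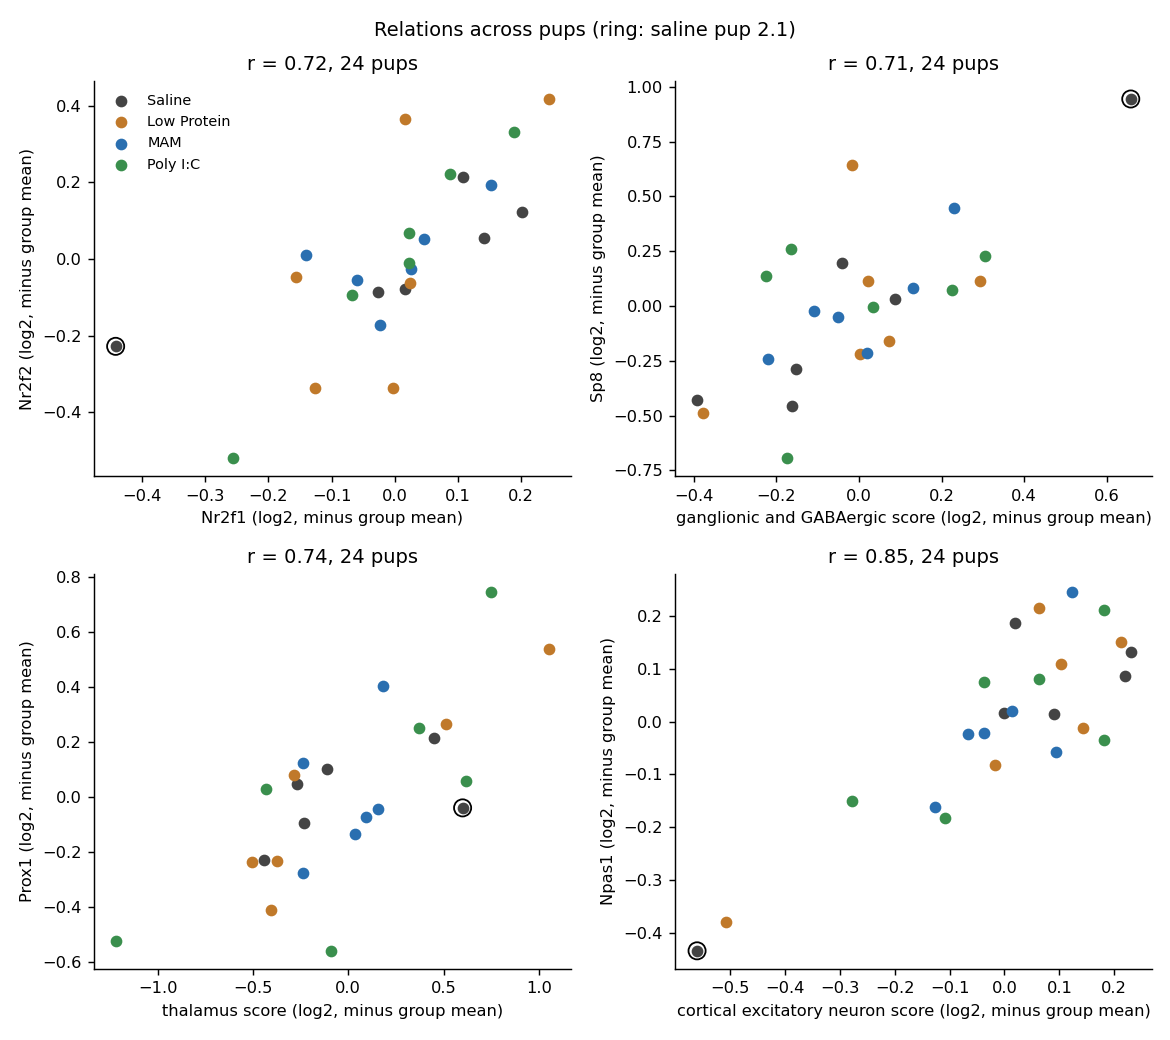
Group-centred log2 values of 24 pups for Nr2f2 against Nr2f1, Sp8 against the ganglionic and GABAergic score, Prox1 against the thalamus score and Npas1 against the cortical excitatory neuron score, coloured by group, with a ring around saline pup 2.1. The ringed pup lies at the end of the Sp8 and Npas1 panels, and r is 0.72, 0.71, 0.74 and 0.85.

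The genes most like each of the 7 were taken from all 13785 genes by Pearson's r over the 24 group-centred pups. Dlx2, a homeobox gene of eminence progenitors, was closest to Sp8 with r = 0.90. For Nr2f1 the closest was Pam (0.80), which encodes an enzyme of peptide amidation. For Nr2f2 they were Pdzd3 (0.80), Chst8 (0.79) and Shh (0.78), the last a secreted ventral patterning signal. For Prox1 they were Pou2f2 (0.84), Sorcs2 (0.80) and Lrp2 (0.80). For Htr3a they were Tmem229b (0.80), Csdc2 (0.78) and Dusp15 (0.78). For Gsx1 they were Slc25a18 (0.85), the progenitor gene Sox2 (0.77) and the ventral homeobox gene Vax1 (0.75). For Npas1 they were Lzts1 (0.88), B3gat1 (0.87) and Cdk19 (0.87). These are the highest of many correlations and are given as a description.

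Levels can be set side by side between genes only per length, and here the length is the genomic span, so that introns lower the value of a long gene. On that scale the mean over 24 pups was 20.5 for Nr2f1 and 15.0 for Nr2f2, higher than 97.5% and 96.6% of all 17420 genes. Sp8 had a mean of 1.55, Npas1 0.580, Htr3a 0.532, Gsx1 0.478 and Prox1 0.200, which lay above 75.9%, 62.3%, 61.2%, 59.7% and 49.5% of genes. A filter on a mean above 1 in every group keeps 3 of the 7 (Nr2f1, Nr2f2 and Sp8) and drops Htr3a and Prox1.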

How the data were processed

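RNA from 24 pups was sequenced as 100-base read pairs. Per the study's methods, the authors trimmed reads at phred 30 with a minimum length of 25, aligned them to rn6 with STAR 2.4.1d, and quantified them with Partek against RefSeq release 80. The deposited values are TPM with an offset of 0.0001 added by the authors, and every pup sums to 70350.1.

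Values were compared as log2 with limma 3.58.1 (R 4.3.3, lmFit and eBayes with a variance trend) over all 24 pups with group as the factor, and Benjamini-Hochberg adjustment over the 13785 genes above the offset in at least 12 pups. No further pseudocount was added, so a fold change of a gene near the offset depends on it. Single genes were compared by exact permutation tests (Python 3.11.15, scipy 1.17.1). The fit was tested on simulated data. The table holds no counts. Reads per pup were estimated from the steps between low values times genomic span, and 49.1% to 54.5% of low values lay within 0.05 of a whole number of steps, where an even spread would give 10%. These spans are from GRCr8 and not rn6, so the depths are approximate.

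The genes and marker lists were chosen with earlier results of these data known. Named are the 8 listed genes, up to 3 genes of each list by size of difference, the 3 genes most like each, and paralogs of the 8. The genes of saline pup 2.1 were named after the values were seen. Ndnf, Dlx6 and Emx1 were not analysed here. The labels give each group the numbers 1.1 to 2.3. Pups with the same number come from different litters, and their deviations correlated at medians of -0.03 to 0.08, so the numbers were not used as pairs. Alternatives covered the filter, offset, scaling, pups, litters and variance model.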

Additional observations from a re-analysis of the deposited data

Results flagged for a closer look

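In each group of 6 pups, the highest and lowest pup of each gene was compared with the rest by the size of its gap. Over 28 groups (7 genes in 4 groups), 3 values stood out, in 2 pups, and chance gives about 1 in 20. Nr2f1 was 14.7 in saline pup 2.1, where the other saline pups had 19.6 to 23.0. Npas1 was 0.409 in the same pup, against 0.558 to 0.629. Sp8 was 0.975 in pup 1.3 of Poly I:C, where the other 5 pups had 1.57 to 1.89. Poly I:C pup 1.3 also had the lowest choroid plexus score of all pups. No cause was tested for any of these values.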

How the results depend on the processing

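The 43 alternatives called none of the 7 genes in any comparison, and the lowest adjusted p, 0.0723, was that of Htr3a in Poly I:C without litter 1. The median log2 fold change of the 7 genes had a lowest and highest value of -0.34 and -0.11 for Low Protein, -0.09 and 0.02 for MAM, and -0.12 and 0.06 for Poly I:C, so its sign held only for Low Protein. With the replicate block, which used the numbers in the sample names, 0 genes were called and the medians were -0.26, -0.05 and -0.09, and Htr3a had adjusted p-values of 0.384 for Low Protein and 0.25 for Poly I:C by limma.

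Single log2 fold changes close to 0 turned in sign under another scaling. With median-of-ratios scaling, Nr2f1 in Low Protein became 0.0151, and Nr2f2 and Htr3a in MAM became 0.0196 and 0.0182. With upper-quartile scaling, Nr2f2 and Htr3a in MAM became 0.0094 and 0.0080. Scaling moved the median of all genes by less than 0.1, the most in MAM, from -0.071 to -0.007.

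Leaving out 1 pup or litter also turned the sign of small values, with these ranges. In Low Protein, Npas1 ran from -0.0335 to 0.19 and Nr2f1 from -0.10 to 0.0786. In MAM, Gsx1 ran from -0.48 to 0.16, Htr3a from -0.10 to 0.0164, Npas1 from -0.0095 to 0.21 and Nr2f2 from -0.11 to 0.0187. In Poly I:C, Gsx1 ran from -0.81 to 0.26, Npas1 from -0.0558 to 0.17, Nr2f1 from -0.0432 to 0.13, Nr2f2 from -0.15 to 0.0168, Prox1 from -0.0100 to 0.29 and Sp8 from -0.34 to 0.13.

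With 2 litters per group, the spread between dams is poorly known, and p-values over pups do not include it. Depth limits Gsx1 most.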
